A study of Mus musculus with 15 samples.

Results

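The use of exons within genes was compared between 2 mouse cell lines, with the 8 arrays of 3134 cells set against the 7 arrays of AtT-20 cells, which together are all 15 arrays of the series. The 3134 line comes from C127 cells of a mammary adenocarcinoma of an RIII mouse, and AtT-20 is an anterior pituitary corticotroph line of LAF1 strain. Both were kept for 48 h in medium with 10% charcoal-treated serum and then given 100 nM dexamethasone, a synthetic glucocorticoid, for 0, 2, 4 or 8 h. Each line and time had 2 arrays, apart from AtT-20 at 8 h with 1, and the times were pooled here. The 0 h cells are called untreated in 1 label and vehicle treated in another, and cells left untreated for those times were not measured in this series. Each line stands for its tissue through 1 line only, so line, tissue of origin and mouse strain cannot be told apart, and a base difference between the strains under a probe would be part of the same contrast. The labels do not say that the arrays of a line came from separate cultures, so the spread behind each p-value is that of arrays and may be technical only.

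The unit was the probeset, a small group of probes aimed at 1 exon or a stretch of an exon. Its score is its log2 value minus the median log2 value of all probesets of its gene on the same array, so that a gene with more RNA in a line does not have a higher score for that reason alone. A positive difference below means a higher score in 3134, a negative one a higher score in AtT-20. Of 228090 probesets on the arrays, 115512 (50.6%) in 7620 genes had a score. They were those with 1 gene symbol, in genes of at least 3 probesets whose level (the median over probesets) passed the 40th percentile of all values, log2 6.59, in both lines. The gene nearest to this limit inside it was Slc29a2 and the nearest outside was Lactb, both at a level of 6.59 in their dimmer line. The kept genes had a median of 13 probesets.

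Most mouse genes can give several RNAs, through the skipping or inclusion of an exon, a choice between splice sites, or another first or last exon. RNA-binding proteins set much of this choice in a cell. Ptbp1 holds back many exons in cells that are not neurons, the Elavl and Khdrbs3 proteins act on exons of neural genes, and Esrp1 favours the epithelial forms of junction and cytoskeletal genes. Endocrine cells with secretory granules, corticotrophs among them, share part of the exon programme of neurons. A score compares probesets within a gene and cannot show which of these events lies behind a difference, and the positions of the probesets within the genes were not used here.

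The marker genes matched the label of AtT-20 and only part of that of 3134. All 14 measured corticotroph markers were above the limit in AtT-20 and 1 of 14 in 3134, Cpe. The level of the hormone precursor Pomc was 13.28 in AtT-20 and 4.95 in 3134. Of 14 mesenchymal markers, 13 were above the limit in 3134, with Vim at 13.26 and Fn1 at 13.02, against 5 in AtT-20. Of 13 epithelial markers, 1 was above it in 3134, Krt14, and 6 in AtT-20. Krt8 was at 6.57 and Krt18 at 5.18 in 3134, against 11.69 and 9.90 in AtT-20, and Cdh1 and Epcam were below the limit in both lines. By these markers 3134 did not read as an epithelial line. Of 14 markers of other cells, 2 were above the limit in 3134 (Cd14 and Cdh5) and 1 in AtT-20 (Mbp). The arrays of each line fall into a lower and a higher series of the serial numbers in their titles, called the first and second run here. The labels do not say what these numbers stand for, and the higher series of the lines are not adjacent in number. Across probesets, the scores of 2 arrays of a line correlated at 0.945 to 0.976 within a run and 0.920 to 0.947 between runs in 3134. In AtT-20 these ranges were 0.943 to 0.978 and 0.911 to 0.940, and between the lines the range was 0.879 to 0.936.

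A probeset was called at an adjusted p under 0.05 in limma's moderated test, adjusted by Benjamini and Hochberg's method over all probesets. It was called strongly if its scores also differed by at least 1 on the log2 scale, which is 2-fold, and no array of a line overlapped those of the other. Of 115512 probesets, 15694 (13.6%) were called, 8137 higher in 3134 (7.04%) and 7557 lower (6.54%). The median difference in size over all probesets was 0.152, close to the median standard error of 0.128. Strong calls were fewer, at 2513 probesets (2.18%), of which 1105 were higher (0.957%) and 1408 lower (1.22%) in 3134. They lay in 1394 of the 7620 genes (18.3%), with a higher probeset in 669 (8.78%) and a lower one in 913 (12%), while 5133 genes (67.4%) held a call of any size. Of all probesets, whatever their size or p, 5306 (4.59%) had arrays that did not overlap between the lines. Among these genes, 925 had 1 strong probeset, 347 had 2 or 3 and 122 had 4 or more. In 481 genes all strong calls were higher in 3134, in 725 all were lower, and 188 genes held both directions. The median size of a strong call was 1.49, and 597 reached 2, 189 reached 3 and 53 reached 4. Both lines were above log2 6.59 for 1554 of the strong probesets, while 681 were above it in 1 line only, 352 in 3134 and 329 in AtT-20. The remaining 278 (11.1%) were below it in both lines.

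Strong calls were more frequent where the level of the whole gene differed. In the 6146 genes whose level differed by less than 1 between the lines, 1093 of 94010 probesets were called strongly (1.16%). In the other 1474 genes, the count was 1420 of 21502 probesets (6.60%). There, 73.5% of the strong calls had the sign opposite to that of the gene level difference, against 48.2% in the genes of like level. Gene levels differed at an adjusted p under 0.05 (limma) in 5448 of the 7620 genes (71.5%), 2436 of them higher and 3012 lower in 3134. On the deposited log2 scale, without quantile normalization, 2408 were called, 1421 higher and 987 lower, and the cause of the lower count was not tested. The median gene level difference was 0.06 there and -0.08 after normalization. Scores depend little on such shifts, and gene level differences of about this size, such as those of Dnmt3a, Tmem87a, Ddx55, Hnrnpa2b1 and Ppp2r5c, change sign with the scale. The part that dim or bright ends of the signal range take in these calls was not tested. The genes described first below are therefore of like level, with a probeset above log2 6.59 in at least 1 line. Strong calls of that kind numbered 969 in 677 genes, 355 higher and 614 lower in 3134. Of these, 596 were above log2 6.59 in both lines, 169 in 3134 only and 204 in AtT-20 only. Genes with more probesets had a strong call more often: 10% of genes with 3 to 7 probesets, 16.3% with 8 to 14, 20.5% with 15 to 24 and 31.2% with 25 or more. Among genes of like level, those with and without a strong call had the same median number of RefSeq transcripts with 3 to 7 probesets (2) and with 8 to 14 (3). The medians were 5 and 4 with 15 to 24 probesets, and 8.5 and 6 with 25 or more.

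**Figure D1:**
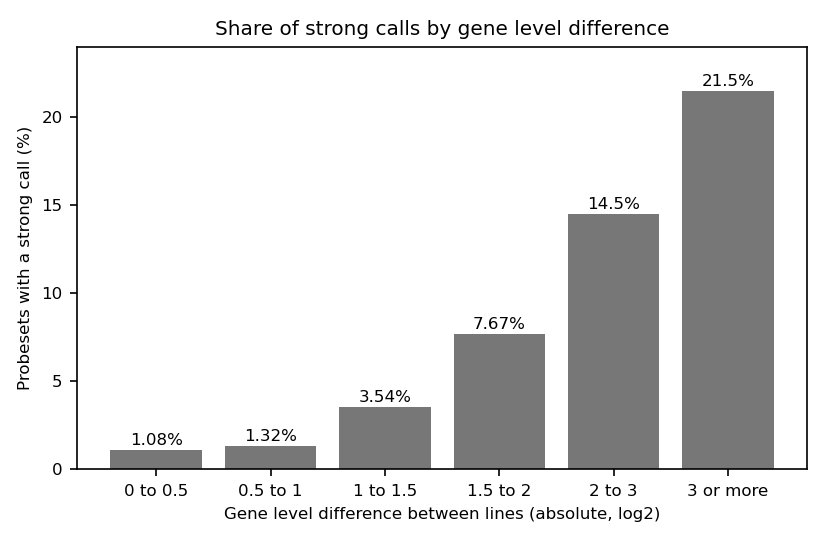
Bars give the percentage of probesets with a strong call (vertical axis) for 6 ranges of the absolute difference in gene level between 3134 and AtT-20 (horizontal axis, log2). The share was 1.08% and 1.32% in the 2 lowest ranges and rose through 3.54%, 7.67% and 14.5% to 21.5% where the gene level differed by 3 or more.

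The largest differences among genes of like level were at probesets that read above the limit in AtT-20 and below it in 3134. Some of these genes held further strongly lower probesets, and each gene is described by its largest. Nudt4, which encodes an enzyme that removes phosphate from diphosphoinositol phosphates, had the largest difference among genes of like level. Its probeset read from 3.30 to 4.64 (median 4.32) over the 8 arrays of 3134, and from 10.13 to 10.49 (median 10.21) over the 7 arrays of AtT-20. The groups were far apart, with every 3134 array dim and every AtT-20 array bright, although the gene as a whole was slightly higher in 3134 (10.55 against 9.89). The score difference was -6.72 ± 0.167 (SE, limma adjusted p = 8.52e-13), or 105-fold. Nudt4 held 1 more strong probeset lower in 3134 and 3 higher ones among its 10 probesets.

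Pam had a difference of the same kind in a gene with a role in endocrine cells: its enzyme puts the amide group on the ends of peptide hormones inside secretory granules. The probeset read 1.96 to 2.61 (median 2.35) in 3134 and 8.04 to 8.94 (median 8.35) in AtT-20. The score was 46.1-fold lower in 3134 (log2 -5.53 ± 0.144, SE, adjusted p = 8.81e-13). The other 27 probesets of Pam kept to a narrow band, with score differences from -0.59 to 0.49, and 8 of them were called, none strongly. The level of Pam itself was 10.51 in 3134 and 11.09 in AtT-20, so both lines held Pam RNA, and 1 of its 28 probesets set them strongly apart.

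Hnrnpa2b1, an RNA-binding protein that itself takes part in splicing, gave a like picture. Over the arrays of 3134 the probeset read 2.08 to 3.72 (median 2.66), and over those of AtT-20 7.14 to 9.08 (median 8.32). The score difference was -5.24 ± 0.292 (SE, adjusted p = 4.12e-09). None of its other 16 probesets was called, and they lay between -0.29 and 0.30. The 3134 arrays were thus below the limit at this 1 probeset while the gene levels of the lines differed by 0.12. Whether copies of this gene elsewhere in the genome hybridise to its probes was not tested.

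Fubp1, whose protein binds the far upstream element of Myc, was bright in both lines as a gene (10.13 and 10.66). Its named probeset read 4.83 to 5.88 (median 5.65) in 3134 and 10.92 to 11.82 (median 11.44) in AtT-20, a score difference of -5.40 ± 0.220 (adjusted p = 9.76e-11). Clasp2 guides growing microtubule ends and has neuron-enriched exons. Its probeset ran from 3.14 to 5.05 (median 3.72) in 3134 and from 9.02 to 9.66 (median 9.09) in AtT-20, a difference of -4.69 ± 0.195 (adjusted p = 1.22e-10). In both genes no 3134 array came near the AtT-20 arrays, and in each a further probeset was strongly lower in 3134.

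Cr1l encodes Crry, a mouse membrane protein that limits complement activation, and 3 of its 16 probesets were strongly lower in 3134, by 3.10 to 5.08. At the strongest of them the arrays of 3134 read 1.87 to 2.63 (median 2.29) and those of AtT-20 7.11 to 8.17 (median 7.60). The largest differences of 6 further genes ran the same way. They were -6.29 ± 0.275 for the Golgi membrane protein gene Tmem87a, -5.64 ± 0.264 for the mitochondrial ribosomal gene Mrps31 and -5.52 ± 0.286 for Kctd10, an adaptor of cullin ubiquitin ligases. For Rint1, which acts in transport between Golgi and endoplasmic reticulum, the value was -5.04 ± 0.180, for the ubiquitin ligase Trim2 -4.85 ± 0.322, and for Btbd10 -4.54 ± 0.294. As the choice of these 12 required, no array of a line reached the range of the other. The highest adjusted p among these 12 was 3.22e-08.

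In the other direction the largest differences among genes of like level were smaller. Stab2, a scavenger receptor for hyaluronan, gave the largest, but its gene level was close to the limit in both lines (6.94 and 6.89). Its probeset read 8.05 to 8.53 (median 8.33) in 3134 and 2.74 to 3.91 (median 3.40) in AtT-20, a score difference of 4.90 ± 0.264 (adjusted p = 2.65e-09). Stab2 also held the most strong calls of any gene of like level: 16 higher and 7 lower among 72 probesets. Its probesets thus spread widely both ways around a low gene median.

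Gemin5 binds small nuclear RNAs for the complex that loads Sm proteins onto them, a step in making the spliceosome. Its probeset read 6.79 to 8.85 (median 8.46) in 3134 and 2.29 to 5.23 (median 4.22) in AtT-20, with a score difference of 4.70 ± 0.366 (adjusted p = 2.02e-07). Nr2f2, the orphan nuclear receptor COUP-TFII, read 7.21 to 8.90 (median 7.65) and 2.40 to 3.83 (median 2.77), a difference of 4.61 ± 0.342 (adjusted p = 1.15e-07). Gdi2, which keeps Rab GTPases soluble, read 9.62 to 10.84 (median 9.90) and 3.85 to 6.36 (median 4.51), a difference of 4.48 ± 0.308 (adjusted p = 4.74e-08). In all 3 genes every 3134 array was above the limit and every AtT-20 array below it. Nr2f2 had 1 further strong probeset among 12, Gemin5 1 among 37 and Gdi2 none among 13.

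Clstn1 encodes calsyntenin 1, a membrane protein that links cargo to kinesin motors, and it is on the list of genes with neural exons. Its probeset read 6.12 to 7.43 (median 6.76) in 3134 and 1.74 to 3.85 (median 2.39) in AtT-20, a difference of 3.62 ± 0.282 (adjusted p = 2.01e-07). The mammary line thus had the higher score at this probeset. Differences for the interferon-induced gene Ifi27 (3.95 ± 0.236), for Fgfr1op2 (3.84 ± 0.152), for Hcfc1r1, which binds the transcription coregulator HCF-1 (3.71 ± 0.102), and for Vmp1, an autophagy protein of the endoplasmic reticulum (3.70 ± 0.258), lay close together. So did those for the RNA helicase gene Ddx55 (3.65 ± 0.186) and for Spag4 (3.48 ± 0.158), whose protein spans the nuclear envelope. The highest adjusted p among the 12 largest higher probesets was 2.02e-07.

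**Figure D2:**
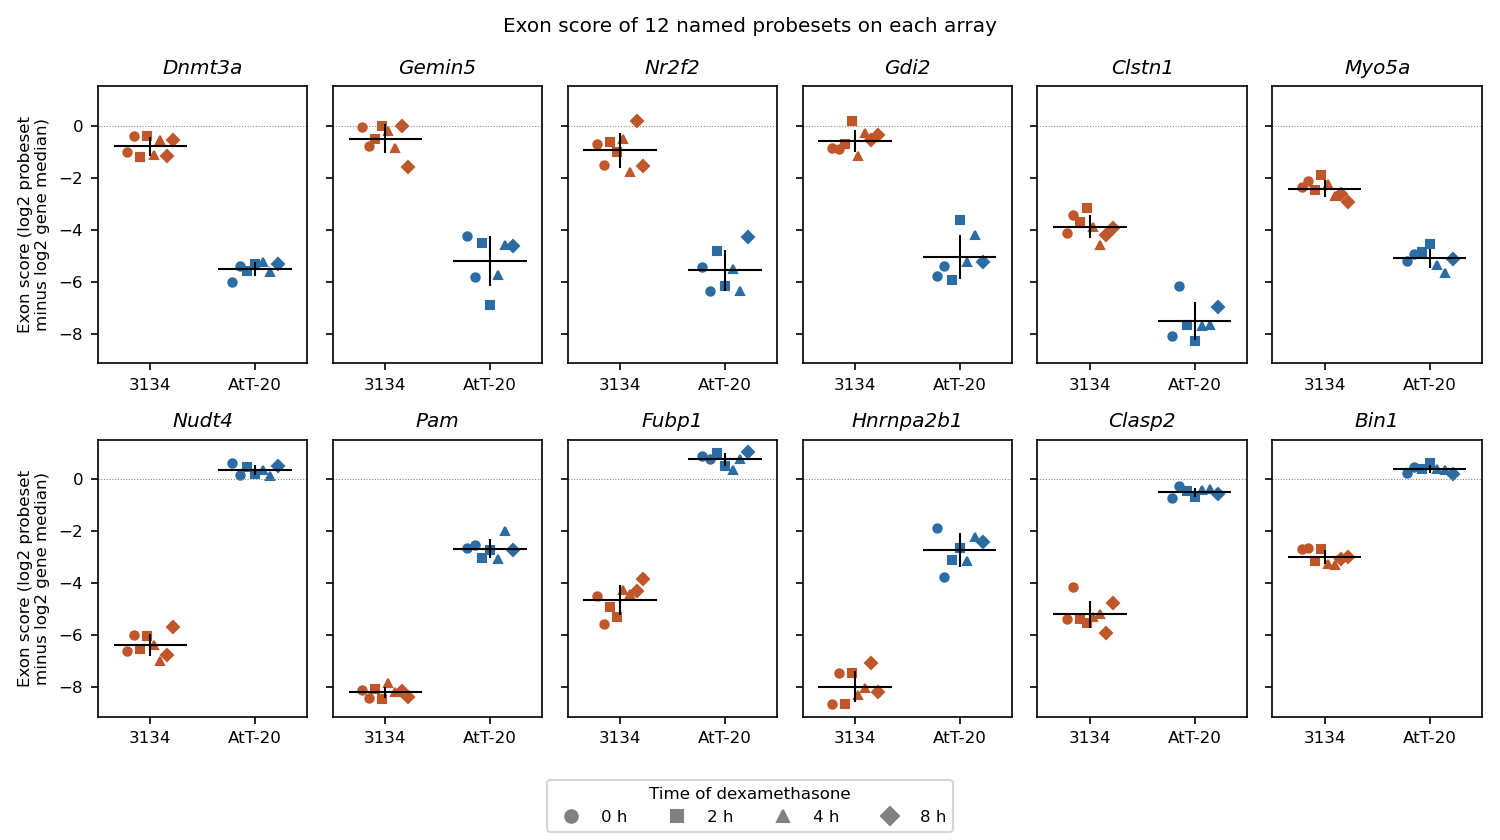
Each point is the exon score (vertical axis, log2 probeset value minus log2 gene median) of 1 probeset on 1 array of 3134 or AtT-20, for 12 genes, with its marker giving the time of dexamethasone. Horizontal lines are means and vertical lines 1 SD over 8 arrays of 3134 and 7 of AtT-20. In all 12 genes the lines occupy separate ranges, as the choice of these probesets required. The means are 4.70 apart in Dnmt3a and 5.53 apart in Pam.

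Some genes differed over a block of probesets rather than at 1. Dnmt3a, a methyltransferase that sets new DNA methylation and is made in a long and a short form from different start sites, had 9 strong probesets among 33, all higher in 3134. Averaged over these 9 probesets, the arrays of 3134 read 7.81 to 8.45 (median 8.21) and those of AtT-20 4.13 to 4.87 (median 4.38). The score differences of the 9 ran from 2.56 to 4.70, with the largest at 4.70 ± 0.157 (adjusted p = 1.18e-11). The other 24 probesets ran from -0.89 to 0.04, and the gene level was 8.24 in 3134 and 8.31 in AtT-20. The probesets of Dnmt3a therefore fell into 2 separate sets, with no score difference between 0.04 and 2.56. Which exons the 9 probesets lie in was not determined here.

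Senp7, a protease that trims SUMO chains, showed the reverse. Its 9 strong probesets among 29 were all lower in 3134, by 2.15 to 3.12. Averaged over them, the arrays of 3134 read 8.09 to 8.50 (median 8.26) and those of AtT-20 11.05 to 11.56 (median 11.28). The average of these probesets was thus above the limit in both lines, unlike in Dnmt3a, where that of AtT-20 was below it. The largest of the 9 was itself dim in 3134, at 5.13 to 6.42 (median 5.90), against 8.97 to 10.04 (median 9.43) in AtT-20. The other 20 probesets of Senp7 ran from -0.19 to 0.73, and its gene levels were 8.26 and 8.75. The largest difference was -3.12 ± 0.191 (adjusted p = 1.28e-08).

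Osbpl1a and Rgs3 held blocks in both directions. Osbpl1a, an oxysterol-binding protein relative of the late endosome, had 9 strong probesets higher and 8 lower in 3134 among 28. The mean of the 9 read 7.80 to 8.53 in 3134 and 6.05 to 6.96 in AtT-20. The mean of the 8 read 8.63 to 8.91 in 3134 and 9.30 to 10.08 in AtT-20. The sets separated the lines in opposite directions while the gene level differed by 0.12 (adjusted p = 0.342). Rgs3, which speeds the switching off of G proteins, had 5 higher and 8 lower strong probesets among 45. Its 5 read 8.40 to 9.33 in 3134 and 6.42 to 6.94 in AtT-20, and its 8 read 5.81 to 6.31 and 7.35 to 8.01, with a gene level difference of 0.06.

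A pair of genes outside the limit on gene level had larger blocks or differences, and they were picked after their values were seen. Gnas, an imprinted locus whose first exons give the stimulatory G protein subunit and other proteins, was 2.65 lower in 3134 as a gene (8.06 against 10.70). Of its 40 probesets, 25 were strongly higher in score and 7 strongly lower. Averaged over the 25, levels were close, at 10.54 to 10.73 in 3134 and 11.10 to 11.43 in AtT-20. Averaged over the 7, they were 5.25 to 5.65 in 3134 and 11.01 to 11.91 in AtT-20. The higher scores of the 25 thus stood beside levels somewhat lower in 3134, and the gene median of 3134, 8.06, lay between the averages of the sets. The largest single difference was -6.17 ± 0.174 (adjusted p = 1.85e-12). Tpm1, the actin-binding protein alpha-tropomyosin with its well-known exchangeable exons, was 2.09 higher in 3134 as a gene. Its 2 strong probesets among 10 averaged 10.85 to 11.62 in 3134 and 3.17 to 3.93 in AtT-20. The largest was 7.10 ± 0.132 higher in 3134 (adjusted p = 2.11e-14), while the other 8 probesets lay between -0.69 and 0.49.

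**Figure D3:**
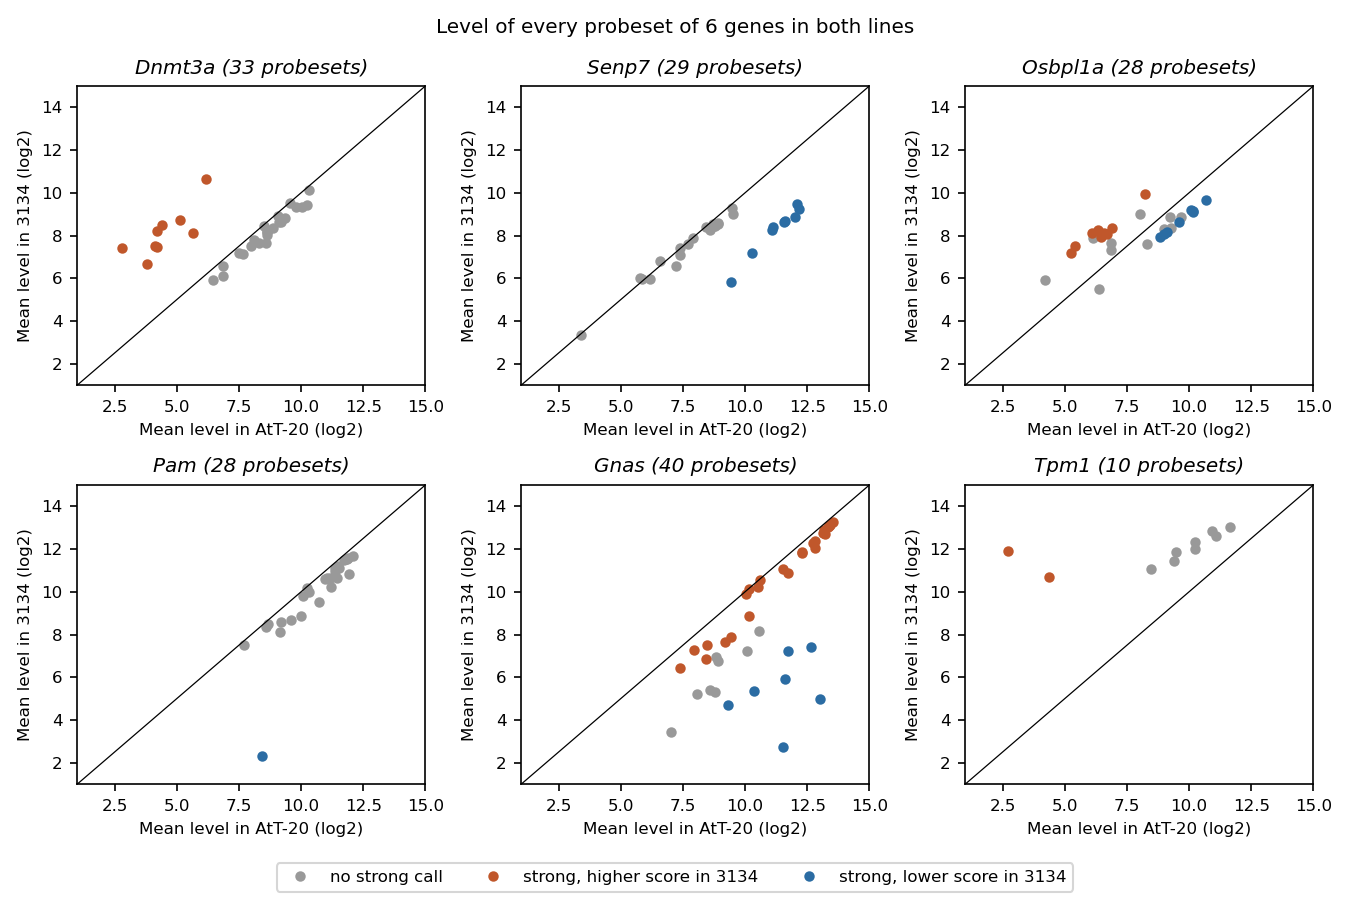
Each point is a probeset of 1 of 6 genes, with its mean log2 level in AtT-20 on the horizontal axis and in 3134 on the vertical axis; the diagonal marks equal levels and colours mark strong calls. The 9 strong probesets of Dnmt3a lie above the diagonal and the 9 of Senp7 below it, and 1 of 28 in Pam lies apart from the rest. In Gnas, 25 of 40 probesets lie near or somewhat below the diagonal and 7 lie far below it. The other 8 of Gnas lie between these sets, with a median level difference of -2.85.

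Lists of genes were described by counts, beside the 18.3% of all genes with a strong call and the 2.18% of all probesets called strongly. The lists hold many long genes (968 probesets in 35 genes of the first), which more often have a strong call, and some genes stand on more than 1 list. Genes of unequal level also have one more often. Of all 1394 genes with a strong call, 677 held a bright one at like gene level. Such genes were 8 of 18 with neural exons, 5 of 11 epithelial-mesenchymal and 5 of 16 cytoskeletal. They were 10 of 12 in vesicle traffic, 4 of 13 in signalling, 2 of 4 in the receptor pathway, 4 of 7 in adhesion and 3 of 6 splicing factors. Among 35 measured genes with known neural exons, 18 (51.4%) had a strong call: 5 only higher, 8 only lower and 5 in both directions in 3134. The share of probesets was 3.93% (38 of 968), and the median size of a difference was 0.149, against 0.152 over all probesets. Besides Clasp2 and Clstn1, Itsn1, an endocytic scaffold with a neuron-specific long form, had 4 strong probesets among 49, all lower in 3134. The strongest read 4.00 to 6.07 (median 5.43) in 3134 and 7.11 to 8.33 (median 7.61) in AtT-20, a difference of -2.28 ± 0.268 (adjusted p = 1.89e-05). Clta, clathrin light chain A, carries inserts that are used in neurons, and 1 of its 8 probesets read 7.59 to 8.57 (median 8.27) in 3134 and 9.50 to 9.77 (median 9.68) in AtT-20. Its score was 4.08-fold lower in 3134 (-2.03 ± 0.163, adjusted p = 2.95e-07), although its gene level was higher there by 0.61. Itsn1, Clta and Clasp2 were thus higher in score in the pituitary line at every strong probeset, and Clstn1 was not. Over the whole list, 15 strong probesets were higher and 23 lower in 3134.

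Of 32 measured genes with exons that differ between epithelial and mesenchymal cells, 11 (34.4%) had a strong call, 1 only higher, 7 only lower and 3 in both directions. Their share of probesets was 2.17% (21 of 967), near that of all probesets, and their median difference was 0.195. Ctnnd1, or p120 catenin, which stabilises cadherins and has a longer form in mesenchymal cells, had 1 strong probeset among 25. It read 7.14 to 8.67 (median 8.03) in 3134 and 4.31 to 5.94 (median 5.59) in AtT-20, a difference of 2.23 ± 0.261 (adjusted p = 1.81e-05). Slk, a kinase of cell migration, was lower in 3134 at 1 probeset of 24 by 1.73 ± 0.222 (adjusted p = 4.73e-05). That probeset read 6.84 to 7.76 in 3134 and 7.75 to 9.42 in AtT-20, so the levels met at the edge of their ranges while the scores did not overlap. Magi1, a scaffold of tight junctions, was lower by 1.28 ± 0.195 at its named probeset (adjusted p = 0.000254). Enah, an actin regulator with an epithelial exon that was picked after its values were seen, held the largest difference on this list, -2.91 ± 0.278, in a gene whose level was 2.05 higher in 3134.

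The cytoskeletal list had the largest share of genes with a strong call, 16 of 26 (61.5%), with 6 only higher, 7 only lower and 3 in both directions. Of these 16, 5 held a bright strong call at like gene level. Of its 950 probesets, 6.32% were called strongly, and the median difference was 0.211. Plec, which ties intermediate filaments to other structures, held 31 of the 60 strong probesets of the list, and its gene level differed by 1.41. Dst, a giant linker of actin, microtubules and intermediate filaments with tissue-specific forms, had 6 higher and 1 lower among 120 probesets. At the strongest, the arrays of 3134 read 7.17 to 8.07 (median 7.93) and those of AtT-20 4.92 to 6.83 (median 5.97), a difference of 1.74 ± 0.197 (adjusted p = 1.27e-05). Myo5a, the motor that carries granules and melanosomes along actin and has exons used by tissue, had 1 strong probeset among 44. It read 6.67 to 7.93 (median 7.33) in 3134 and 3.90 to 5.27 (median 4.42) in AtT-20, a difference of 2.68 ± 0.170 (adjusted p = 1.90e-08). Svil, supervillin, was 2.54 ± 0.198 higher in 3134 and Add1, the spectrin-binding adducin 1, was 2.40 lower, in genes of like level. Add1 was only just of like level, with a gene level 0.994 higher in 3134, and 1.15 higher on the deposited scale. Cytoskeletal genes of like level thus held strong calls both ways.

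Of 33 measured genes of vesicle traffic, 12 (36.4%) had a strong call, 9 only lower, 1 only higher and 2 in both directions in 3134. The share of probesets was 2.90% (24 of 829, 7 higher and 17 lower) and the median difference 0.153. Bin1, or amphiphysin 2, bends membranes and has exons used in neurons and in muscle, and 3 of its 19 probesets were strongly lower. The strongest read 7.76 to 8.40 (median 7.99) in 3134 and 10.72 to 10.95 (median 10.92) in AtT-20, a difference of -3.36 ± 0.115 (adjusted p = 1.47e-11), while the gene level was 0.58 higher in 3134. Spag9, the kinesin and dynein adaptor JIP4, read 6.28 to 7.58 (median 7.09) and 9.63 to 10.01 (median 9.84) at its largest probeset, a difference of -2.93 ± 0.199 (adjusted p = 4.05e-08). Snap23, a membrane fusion SNARE, read 8.33 to 9.31 (median 8.74) and 9.94 to 10.40 (median 10.27), a difference of -2.28 ± 0.147 (adjusted p = 2.32e-08). At all 3 probesets both lines were bright or near the limit, and AtT-20 was higher on every array.

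Among 36 measured genes of signalling and transcription, 13 (36.1%) had a strong call, 3 only higher, 9 only lower and 1, Gnas, both ways. Gnas alone held 32 of the 50 strong probesets. The median difference was 0.148. Tcf3 encodes E12 and E47, which arise from alternative exons for the DNA-binding region, and 6 of its 39 probesets were strongly higher in 3134. The strongest read 7.84 to 8.08 (median 7.96) in 3134 and 4.47 to 6.26 (median 5.14) in AtT-20, a difference of 2.25 ± 0.197 (adjusted p = 7.72e-07). Its relative Tcf12 went the other way at 1 of 23 probesets, with a difference of -2.09 ± 0.228 (adjusted p = 8.71e-06). Ppp2r5c, a regulatory subunit of protein phosphatase 2A, was 1.31 ± 0.164 higher in 3134 (adjusted p = 3.66e-05), and the polarity kinase gene Mark3 was 1.23 lower (adjusted p = 5.01e-05).

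Of 20 measured genes of the glucocorticoid receptor pathway, 4 (20%) had a strong call, close to the share of all genes, with 3 only lower and 1 in both directions. The share of probesets was 1.38% (7 of 508) and the median difference 0.121. Nr3c1, the receptor itself, had no called probeset among 11. Its score differences ran from -0.34 to 0.42, and the gene level was 9.91 in 3134 and 8.69 in AtT-20. At the probeset with the largest difference, 0.42 ± 0.168 (adjusted p = 0.122), levels were 8.66 to 10.09 in 3134 and 7.21 to 8.18 in AtT-20, in step with the gene as a whole. With the gene mean in place of the median as reference, this probeset of Nr3c1 passed the test (adjusted p = 0.0242, difference 0.43), and over all alternatives its adjusted p ran from 0.0242 to 0.727. Smarca4, the BRG1 remodelling ATPase that works with the receptor, was lower in 3134 at 1 of 40 probesets. It read 7.76 to 8.80 (median 8.38) and 10.10 to 10.96 (median 10.91), a difference of -1.71 ± 0.204 (adjusted p = 2.27e-05). Hsp90ab1, a chaperone of the receptor, read 12.02 to 12.67 (median 12.42) and 13.45 to 13.67 (median 13.54) at 1 of 18 probesets, a difference of -1.36 ± 0.079 (adjusted p = 7.21e-09). Both Smarca4 and Hsp90ab1 were bright in both lines. Tsc22d3, a glucocorticoid-induced gene with several first exons, had 2 strong probesets in each direction among 12, the largest at -4.39 ± 0.539 (picked after the values were seen), and its gene level was 1.43 higher in 3134.

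Of 17 genes of adhesion and matrix that passed the level limit in both lines, from 40 listed, 7 (41.2%) had a strong call, 2 only higher, 4 only lower and 1 in both directions. The share of probesets was 2.55% (12 of 470) and the median difference 0.144. Neo1, the netrin receptor neogenin, had 2 strong probesets among 38. At the stronger, 3134 read 3.45 to 5.17 (median 4.62) and AtT-20 6.87 to 8.41 (median 7.68), a difference of -2.79 ± 0.242 (adjusted p = 6.88e-07). The semaphorin receptor gene Plxnb2 was 1.36 lower in score in 3134 (adjusted p = 2.10e-05), and the receptor phosphatase gene Ptprs was 1.29 higher (adjusted p = 1.68e-05), each at 1 probeset. The scores of the lines did not overlap at these 3 probesets, whereas the levels of Plxnb2 did (8.00 to 9.32 in 3134 and 8.98 to 9.59 in AtT-20).

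**Figure D4:**
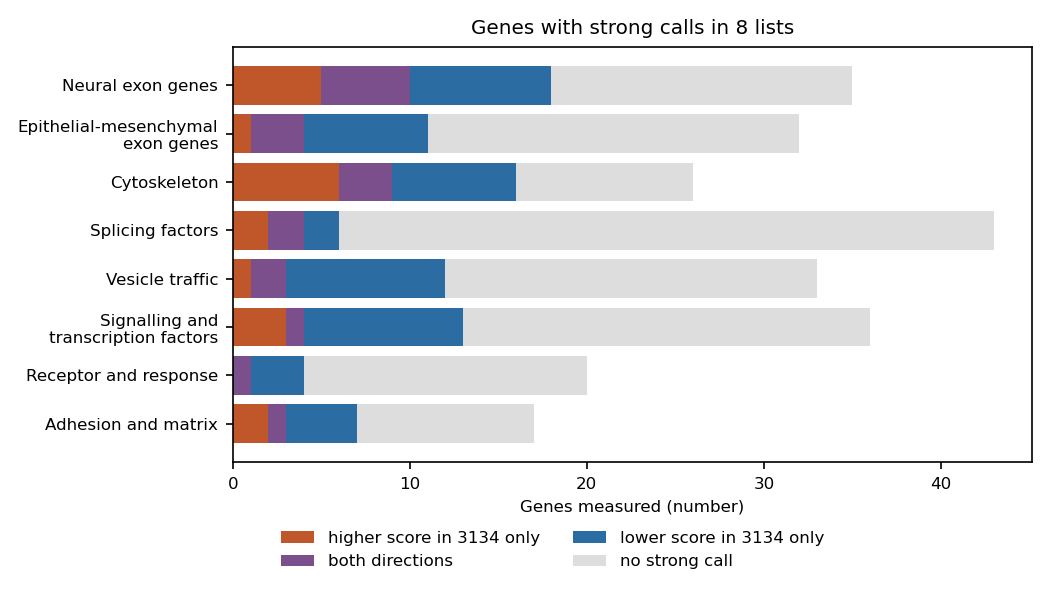
Bars give the number of measured genes (horizontal axis) in each of 8 lists, divided by whether the strong probesets of a gene were higher in 3134 only, lower only, both, or absent. Strong calls, counted at any gene level difference, reach 16 of 26 cytoskeletal genes and 18 of 35 genes with neural exons. They reach 6 of 43 splicing factors and 4 of 20 genes of the receptor pathway.

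Splicing factors were measured for their level as well as their exon use. Of 49 with a level, 44 were above the limit in 3134 and 47 in AtT-20, and 43 were above it in both. Most lay near equal levels, and those that differed most are given here. Esrp1 was at 4.17 ± 0.246 (SD, n = 8) in 3134 and 9.05 ± 0.234 (SD, n = 7) in AtT-20, Khdrbs3 at 4.45 ± 0.153 and 9.42 ± 0.161, and Elavl3 at 5.72 ± 0.385 and 10.36 ± 0.187. Elavl4 (4.54 and 6.81) and Elavl2 (7.37 and 9.27) differed in the same direction. Mbnl3, a muscleblind factor, was the reverse, at 9.73 ± 0.128 in 3134 and 4.15 ± 0.314 in AtT-20, and Qk, the factor quaking, was at 9.97 and 7.66. The arrays of the lines did not overlap for any of these 7 genes, which their choice by size favours. The share of all genes whose levels did not overlap was not counted. Esrp1, Khdrbs3, Elavl3, Elavl4 and Mbnl3 failed the level limit in 1 line and so had no scores or gene level test.

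Ptbp1 and Ptbp2, the non-neural and neural forms of the polypyrimidine tract binding protein, were both present in both lines. The level of Ptbp1 was 11.54 in 3134 and 11.16 in AtT-20, and that of Ptbp2 was 8.15 and 8.86. Each had 1 called probeset and no strong one, among 22 and 14. Score differences ran from -0.33 to 0.71 in Ptbp1 and from -0.15 to 0.38 in Ptbp2. No probeset of either gene differed in score by more than 0.71. Of 43 splicing factors with scores, 6 (14%) had a strong call, 2 only higher, 2 only lower and 2 both ways. The share of probesets was 2.09% (15 of 718) and the median difference 0.121. Besides Hnrnpa2b1, Snrnp70, the core protein of the U1 particle, was lower at its larger of 2 strong probesets, which read 6.93 to 7.86 (median 7.33) in 3134 and 8.74 to 9.35 (median 9.21) in AtT-20. The difference was -1.43 ± 0.174 (adjusted p = 2.70e-05). Clk1, a kinase of splicing factors, was higher in 3134 at 1 of 17 probesets by 1.28 ± 0.133 (adjusted p = 4.98e-06).

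**Figure D5:**
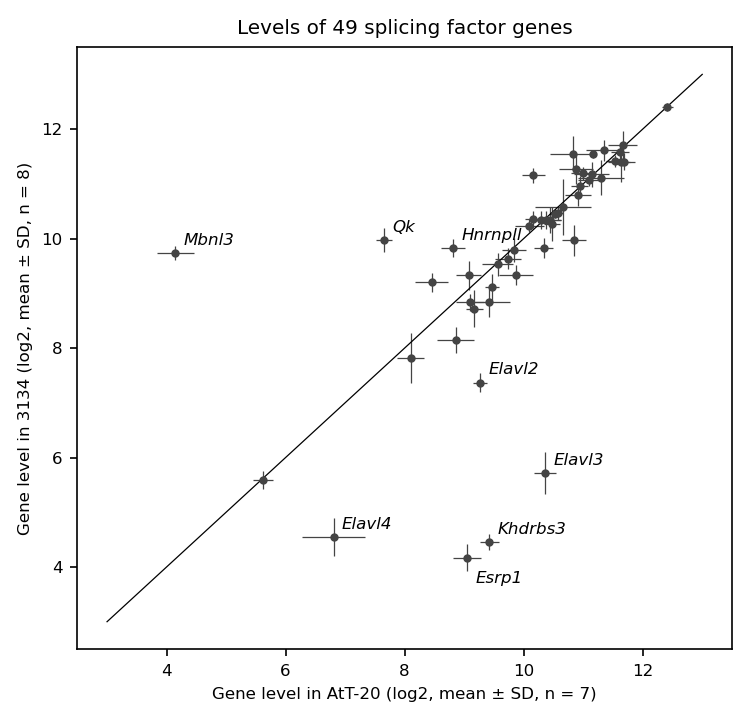
Each point is 1 of 49 splicing factor genes, with its mean log2 level over 7 arrays of AtT-20 on the horizontal axis and over 8 arrays of 3134 on the vertical axis, with bars of 1 SD. Most lie near the line of equal levels, while Esrp1, Khdrbs3 and Elavl3 lie far below it (4.17, 4.45 and 5.72 in 3134) and Mbnl3 far above it (9.73 against 4.15).

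The differences between the lines were also read at each time of dexamethasone. The median size of the 2513 strong differences was 1.53 at 0 h, 1.52 at 2 h, 1.53 at 4 h and 1.51 at 8 h, although the choice of these probesets on the pooled arrays favours such evenness. Of the 56 probesets named here by rule, 51 had an adjusted p under 0.05, and 50 of these did not overlap between the lines on any array, which fixes their sign at every time. For Pam the difference was -5.68, -5.39, -5.46 and -5.55 at 0, 2, 4 and 8 h, and for Dnmt3a 5.00, 4.64, 4.60 and 4.48. In both of these examples the difference at 0 h was no smaller than at later times. It was smaller at 0 h in Stab2 (3.82, then 5.41, 5.00 and 5.87) and Clasp2 (-4.28, then -4.87, -4.83 and -4.76). How many named probesets went each way was not counted. In the test of the line by time interaction (limma, 3 degrees of freedom), 0 of 115512 probesets (0%) had an adjusted p under 0.05 and 1433 had an unadjusted p under 0.05 (1.24%). The lowest interaction p-values were those of Fcho1, Arhgef3 and Diablo, all with an adjusted p of 1. In the tests of time within a line, 0 probesets were called in 3134 (1688 unadjusted, smallest adjusted p 0.400) and 0 in AtT-20 (1733 unadjusted, smallest adjusted p 0.248). With 1 or 2 arrays per line and time, a count of 0 does not show that exon use stayed the same over time.

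With the run as a block shared by the lines, 4 probesets were called for time within 3134, in Sgk1, Prr15l, Lbp and Arrdc2, each with an adjusted p of 0.0258, and none in AtT-20 or for the interaction. Sgk1 encodes a kinase induced by glucocorticoids. Against 0 h, the score of its probeset changed by -2.45 at 2 h, -1.32 at 4 h and -1.52 at 8 h in 3134, and by -1.24, -1.91 and -1.60 in AtT-20. For Lbp, the lipopolysaccharide binding protein, the changes were -1.86, -2.69 and -3.03 in 3134, and 0.19, -0.02 and 0.07 in AtT-20 (adjusted p of the interaction 0.731). For Arrdc2, an arrestin-related gene, they were -2.15, -2.28 and -2.28 in 3134, and -1.20, -0.86 and -1.14 in AtT-20. For Prr15l they were 1.15, 2.00 and 1.76 in 3134, and 0.29, 0.53 and 0.40 in AtT-20. The score of Arrdc2 thus fell and that of Prr15l rose at all 3 times in both lines, by less in AtT-20. Whether the probeset or the rest of its gene moved was not tested. These 4 were named because the blocked test called them.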

How the data were processed

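RNA was measured on 15 mouse exon arrays, 1 colour each. The authors deposited 1 log2 value for each probeset and array. Per the submitters' processing notes these come from RMA in Affymetrix Expression Console, with no version or setting stated there. Array medians ran from 6.76 to 8.14 as deposited, so the arrays were quantile normalized, which removes shifts between whole arrays. Symbols came from the platform annotation: 207232 of 228090 probesets had 1 symbol, 3882 several and 16976 none. Of 16207 symbols, 14055 were current in RefSeq (GRCm38.p6, names only), 2111 were updated and 41 kept. No exon sequence or coordinate was used here.

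The fit of the scores had the line as its only term and 13 residual degrees of freedom (lmFit and eBayes of limma 3.58.1, 2-sided, R 4.3.3 and data.table at version 1.17.8). Benjamini and Hochberg's adjustment ran over 115512 probesets. Every adjusted p of the text is from limma. For 116 probesets that are the median of their gene on every array, the score is 0 throughout. F tests of time used the 8 groups of line and time. Precision is limited by the number of arrays. The highest correlation between 2 arrays was 0.986, and none was taken for a repeat.

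Named were the 12 largest differences each way among probesets with an adjusted p under 0.05, no overlap between lines, a gene level difference under 1 and a level of at least log2 6.59 in the higher line; the 5 such genes with the most strong calls; up to 4 genes per list; the 3 lowest interaction p-values; and Nr3c1, Ptbp1 and Ptbp2. The comparison, lists and rule were chosen with earlier results of these data known. Replicate 1 of a group is of the first run and replicate 2 of the second. Deviations from group means correlated at 0.460 to 0.553 (6 pairs of the same run in 3134), 0.326 to 0.452 (3 pairs in AtT-20) and 0.267 to 0.494 (12 pairs across lines), so runs were taken to pair the arrays. With 2 arrays in a group the deviations mirror each other, so these values cannot tell whether the lines shared 1 run or both. Alternatives changed the scale, the reference, the filters, the model and the arrays used.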

Additional observations from a re-analysis of the deposited data

Results flagged for a closer look

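The scores of 56 named probesets were checked for a single array far from the rest of its line, in 112 groups of 7 or 8 arrays, and 5 groups held one. Chance gives about 1 in 20 groups. In Fgfr1op2 the AtT-20 array at 0 h, replicate 1, scored -3.40, with the next at -2.60 and a line median of -2.37. In Kctd10 the AtT-20 array at 4 h, replicate 2, scored 3.06, with the next at 1.88 and a median of 1.56. In Clta the AtT-20 array at 2 h, replicate 2, scored -0.709 (next -0.393, median -0.317). In Tcf12 the 3134 array at 8 h, replicate 2, scored -5.74 (next -4.58, median -4.12). In Diablo the AtT-20 array at 8 h, the only one of its group, scored -4.26 (next -2.58, median -2.52). No array was the extreme one in more than 1 of these genes.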

How the results depend on the processing

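The 51 named probesets with an adjusted p under 0.05 kept their direction in every setting that tested them, which for 50 of them follows from arrays that do not overlap wherever only arrays were left out. They also kept their call, apart from Ptbp2 in the first run, in the second run, in the dexamethasone arrays alone and in limma's diffSplice, and apart from the 0 h arrays alone, where none was called. With these arrays all counts of calls between the lines were 0 (limma), while 9454 of 115294 probesets (8.2%) had an unadjusted p under 0.05 and the smallest adjusted p was 0.101. There Fcho1 (-0.919) and Ptbp1 (-0.272), neither called, turned sign, as did Arhgef3 (0.393) with the dexamethasone arrays alone. Calls appeared for Nr3c1 with the gene mean as reference, for Ptbp1 in diffSplice and for Diablo without the 3134 array at 2 h, replicate 1, with adjusted p-values of 0.0242, 0.000963 and 0.0499, while the highest over their alternatives were 0.727, 0.977 and 0.406.

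Counts moved with the filters. Without the level filter, 40886 probesets were called and 12878 strongly (6399 higher and 6479 lower, in 3707 genes). With genes above the 60th percentile, 7155 were called and 932 strongly (385 and 547, in 653 genes), 121 and 302 of them bright and in genes of like level. In genes of like level alone, 8785 were called and 1093 strongly (428 and 665, in 755 genes). With probesets above log2 6.59 in both lines, 1554 were strong, 602 of them higher, with 186 higher ones that were also of like level. Counts also moved with the arrays used, and the condition of no overlap in a strong call is easier to meet with fewer arrays. The first run alone gave 4196 strong calls (2073 and 2123, in 2320 genes; 685 and 957 of like level and bright). The second run alone gave 5851 calls and 3105 strong ones, and 1795 strong probesets were common to the runs, 42.8% of the first and 57.8% of the second. Of the 2513 strong probesets, the first run called 2413 of the 2437 it tested and the second 2117 of 2425. Their choice on all arrays favours this. The dexamethasone arrays alone gave 9610 calls. On the deposited log2 scale, 2408 gene levels were called (1421 higher and 987 lower), which turned the balance of directions, and the cause was not tested, whereas the scores gave 2502 strong calls there. With the run as a replicate block, time within 3134 gave 4 calls in place of 0. Calls between the lines rose from 15694 to 22827 with the block, while strong calls were 2512 against 2513. The block changed no count between the lines by over 1.5 times.

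Leaving out 1 array at a time, with a lone array of a group taken to vary like the others, gave 13429 to 16184 calls, 2570 to 2713 strong calls (1138 to 1241 higher, 1418 to 1497 lower) in 1414 to 1504 genes, and 357 to 408 higher and 610 to 659 lower ones of like level and bright. The condition of no overlap is easier to meet with an array left out. Gene level calls ran from 5327 to 5417. Time within 3134 gave 0 or 1 call, the 1 without the 4 h replicate 2, and the other time tests gave 0. Time tests without the single AtT-20 array at 8 h were not run. With 7 or 8 arrays a line, differences near the median standard error were not resolved. Of the 2513 strong probesets, 278 were below the level limit in both lines. Whether differences at such dim probesets are reliable was not tested. The fit of the deposited values with a block for the run, and the leave-outs for time and gene level, were added after the data were seen.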
